A study of Mus musculus with 4 samples.

Results

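Chemokine receptors were followed across the cell types of the mouse aortic arch. The 9 genes were Ccr1, Ccr2, Ccr7, Cx3cr1, Cxcr2, Cxcr4, Cxcr6, Ackr1 and Ackr3, taken by symbol from 31053 genes measured by droplet single-cell RNA sequencing. All 9 were found, and all 9 had transcripts in at least 1 cell type. Ackr3 had 61406 transcript molecules in the cells kept, counted as unique molecular identifiers (UMIs), against 736 for Cxcr2, the least abundant.

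The study compared male Nrf2Cdh5tKO mice, in which Cre driven by the Cdh5 promoter removes an exon of the Nrf2 gene (Nfe2l2), with Nrf2flox/flox controls that carry the floxed gene without Cre. Cdh5 is active in endothelial cells and in a share of blood-forming precursors, so only part of the immune cells can carry the deletion. All mice were 3 months old at the start: atherosclerotic mice received an injected vector and a high-fat diet for 21 weeks, and normocholesterolemic mice received saline and a standard diet. Aortic arches with their branches and perivascular tissue were pooled from 4 normocholesterolemic or 3 atherosclerotic mice, and each of the 4 conditions is 1 library of sorted living cells.

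Each library is therefore a single pool, and no spread between mice can be estimated within a condition. Values are given below in the order normocholesterolemic Nrf2flox/flox, normocholesterolemic Nrf2Cdh5tKO, atherosclerotic Nrf2flox/flox and atherosclerotic Nrf2Cdh5tKO. The libraries held 8512, 3460, 1160 and 2467 barcodes, of which 7890, 2972, 1020 and 2266 were kept, with median depths between 9200.5 and 14152.5 UMIs per cell. Any 2 libraries shared 2 to 10 barcodes. Nfe2l2 was not lower in the libraries labelled Nrf2Cdh5tKO: it was detected in 51.4%, 80.5%, 48.1% and 87.0% of endothelial cells. Exon 5, which the study names as excised, is the last exon of the annotated transcript Nfe2l2-201, but where the counted reads fell within the gene was not examined. Since the gene's level does not bear out the label, these are called the libraries labelled Nrf2Cdh5tKO.

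Chemokine receptors are membrane proteins through which leukocytes read gradients of chemokines. Most couple to inhibitory G proteins and drive directed migration, and each cell type is recruited to, retained in or released from a tissue by the set it carries. The atypical receptors Ackr1 and Ackr3 bind chemokines without classical G protein signalling and instead transport, present or scavenge them.

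Cell types were assigned by marker genes that included none of the 9 receptors. Cells that passed gates of several lineages received no type. Within the phagocytes, a cell of the macrophage gate was named a macrophage even if it also passed a monocyte or dendritic gate. Of 156 cells that passed the classical monocyte gate, 85 received that name. A cell of the T and thymocyte gates was named a thymocyte, and T cells may also have passed the NK gate. Of 14148 cells, 12835 (90.7%) received a type. Fibroblasts (7650 cells) and smooth muscle cells (2041) formed most of them, and macrophages, monocytes, dendritic cells, lymphocytes, neutrophils and 163 endothelial cells made up most of the rest. The gates also found 519 thymocytes, which are not cells of the vessel wall, and a group of macrophages with markers of serous-cavity macrophages.

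The promoters of 8 receptors were matched in RefSeq on GRCm38.p6, and Ccr7 had no entry. Those of 4 receptors are printed over 240 bases, from 250 to 11 bases before the gene start, on the strand of the gene, because these receptors led in neutrophils (Ccr1, Cxcr2 and Cxcr4) or in fibroblasts (Ackr3). Capitals mark GAGGAA (an ETS-type site of the PU.1 kind), TTGCNNAA (C/EBP), TGTGGT (RUNX) or GGGCGG (GC box), searched on both strands. The windows lie at chr9:123968703-123968942 (Ccr1, minus strand), chr1:74153744-74153983 (Cxcr2, plus), chr1:128592310-128592549 (Cxcr4, minus) and chr1:90203730-90203969 (Ackr3, plus), all upstream of the annotated gene.
Ccr1: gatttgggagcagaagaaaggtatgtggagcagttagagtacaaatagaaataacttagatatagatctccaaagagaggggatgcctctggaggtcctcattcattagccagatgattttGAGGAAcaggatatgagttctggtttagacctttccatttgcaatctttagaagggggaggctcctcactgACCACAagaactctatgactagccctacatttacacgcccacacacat
Cxcr2: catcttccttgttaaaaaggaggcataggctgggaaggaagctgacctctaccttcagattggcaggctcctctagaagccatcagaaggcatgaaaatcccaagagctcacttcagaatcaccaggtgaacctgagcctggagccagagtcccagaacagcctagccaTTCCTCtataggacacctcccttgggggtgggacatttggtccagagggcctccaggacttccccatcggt
Cxcr4: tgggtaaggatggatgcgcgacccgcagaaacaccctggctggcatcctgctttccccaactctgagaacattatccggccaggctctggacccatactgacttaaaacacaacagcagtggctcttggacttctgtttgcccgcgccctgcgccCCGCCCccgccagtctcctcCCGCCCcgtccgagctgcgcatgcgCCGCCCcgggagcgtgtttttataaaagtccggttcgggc
Ackr3: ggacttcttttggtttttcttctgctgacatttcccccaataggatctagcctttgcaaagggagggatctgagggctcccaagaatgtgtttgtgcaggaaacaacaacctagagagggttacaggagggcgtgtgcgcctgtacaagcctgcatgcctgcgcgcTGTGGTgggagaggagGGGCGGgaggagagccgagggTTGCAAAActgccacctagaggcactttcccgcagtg

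GAGGAA was present in the Ccr1 and Cxcr2 windows and in none of the other 6, against 22.3% of 32851 mouse promoter windows of the same length. GGGCGG was found in Cxcr4, with 3 matches, and in Ackr3, against 31.3% of windows, and TGTGGT in Ccr1, Cx3cr1 and Ackr3, against 13.6%. TTGCNNAA was found in Ackr3 alone of the 8, against 9.29% of windows. Ackr1, which also led in fibroblasts but is not printed, held none of these motifs. The windows of Ccr2, Cx3cr1 and Ackr1 overlap the gene as annotated by GENCODE. These matches describe the letters of the windows and are not binding sites. By GENCODE on GRCm38, 3 members lie within 307 kb of each other on chromosome 9, namely Cxcr6 (chr9:123806475-123811760), Ccr1 (chr9:123962124-123968692) and Ccr2 (chr9:124101950-124113557). They did not share a leading cell type, as the levels below show. Cx3cr1 lies further away on the same chromosome (chr9:119901616-120069879), Ackr1 (chr1:173331886-173333750), Ackr3 (chr1:90203980-90216751), Cxcr2 (chr1:74153989-74161246) and Cxcr4 (chr1:128588199-128592293) on chromosome 1 and Ccr7 (chr11:99144196-99155077) on chromosome 11.

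Levels are given as UMIs of the receptor per 1000000 UMIs of all cells of that type in a library (CPM), with the share of cells holding at least 1 UMI. They are given for libraries with at least 10 cells of the type, and intervals cover counting error only, at the 95% level. UMIs of 1 cell are not independent, so the intervals are too narrow. Free RNA can give a low background. In fibroblasts, which have a median depth of 12996 UMIs and should lack the 7 leukocyte receptors, 0.593% to 1.49% of cells held Ccr1, 0.812% to 1.49% Ccr2, 0.728% to 2.12% Cx3cr1, 0.318% to 1.06% Cxcr2, 1.19% to 2.55% Cxcr4, 0.425% to 0.75% Ccr7 and 0.125% to 0.637% Cxcr6. These positive cells were not evenly spread. Of the Ccr1-positive fibroblasts, 21.7% held Ccr2, against 0.963% of the rest, at median depths of 18048 and 12961 UMIs. Single fibroblast-gated cells held up to 15 UMIs of Ccr2 and 14 of Ccr7. The part of free RNA, doublets or other cells in these shares was not tested. Shares in leukocytes at or below these values are read as background.

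**Figure D1:**
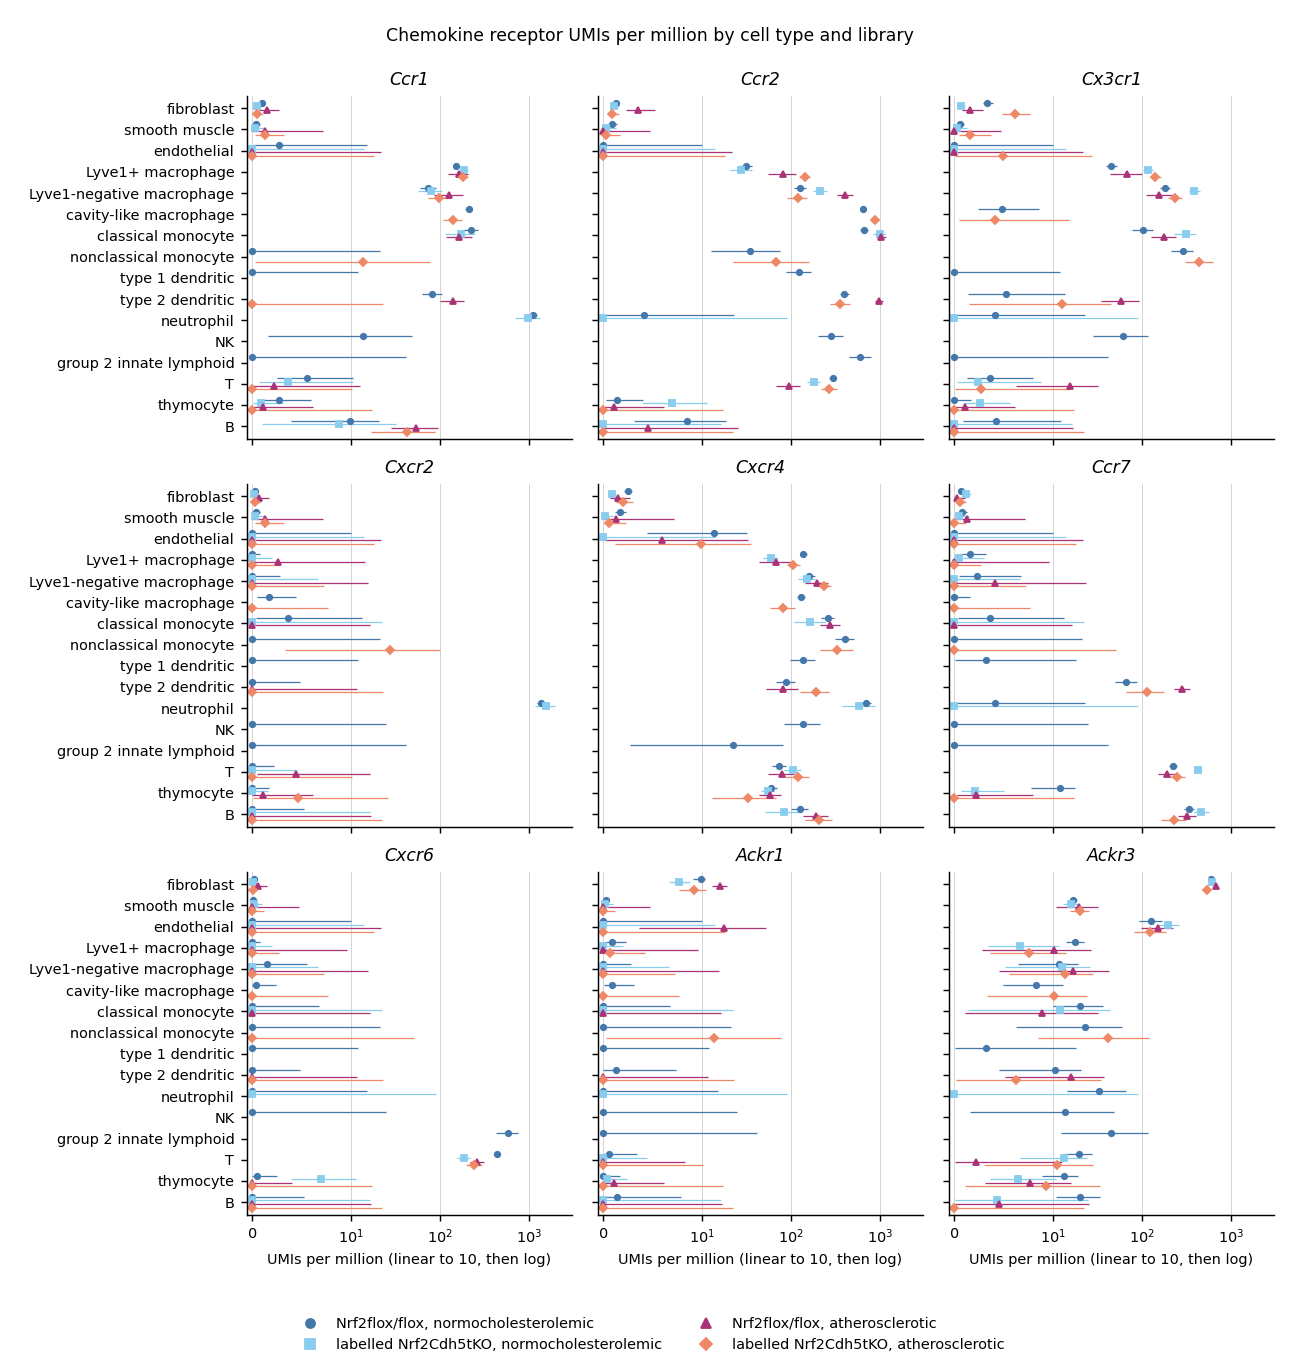
Level of each of the 9 receptors by cell type, in UMIs per 1000000 on an axis that is linear to 10 and logarithmic above; each point is 1 library with at least 10 cells of the type, bars are exact 95% Poisson intervals, and colours mark the 4 libraries. Cxcr2 stands apart in neutrophils, at 1349 and 1521 CPM, and Ackr3 in fibroblasts, at 526 to 664 CPM, whereas Cxcr4 is found in most leukocyte types.

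Ccr1, a receptor for Ccl3, Ccl5, Ccl6 and Ccl9 that guides neutrophils and macrophages, was highest in neutrophils. It reached 1089 CPM (961 to 1230) in the normocholesterolemic Nrf2flox/flox library, with 92.3% of 78 cells positive, and 966 CPM, with 81.8% of 11 cells, in the normocholesterolemic library labelled Nrf2Cdh5tKO. The atherosclerotic libraries held only 9 and 4 neutrophils. Lyve1+ resident macrophages gave 37.8% of all Ccr1 UMIs, and their levels were 152, 184, 160.4 and 181 CPM. This spread was narrower than that of Ccr2, Cx3cr1 or Cxcr4 in the same cells, and 37.1% to 48.1% of them were positive at a median depth of 8467.5 UMIs. Lyve1-negative macrophages held 72.5, 77.9, 126 and 98 CPM. Cavity-like macrophages held 207 CPM and 139 CPM in the normocholesterolemic Nrf2flox/flox and the atherosclerotic library labelled Nrf2Cdh5tKO, with 76.8% and 60.9% of cells positive. Classical monocytes held 219, 169 and 164 CPM in the first 3 libraries, overlapping the cavity-like and Lyve1+ macrophages. The neutrophil levels exceeded those of every other type, and the next 3 types overlapped.

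Cxcr2, the receptor for Cxcl1, Cxcl2 and Cxcl5 that calls neutrophils out of the blood, was a neutrophil transcript here. It reached 1349 CPM in 78 neutrophils and 1521 CPM in 11 neutrophils of the normocholesterolemic libraries, with 96.2% and 90.9% of cells positive. All other leukocyte types lay far lower, and the next value, 27.3 CPM in nonclassical monocytes, is 2 UMIs in 1 of 11 cells, under the floor of 3 UMIs, so no second rank is given. Of 736 Cxcr2 UMIs, 61.7% lay in neutrophils and a further 28.7% in cells that passed several gates, since 157 cells passed the neutrophil gate and 102 passed it alone. Of these 102 neutrophils, 98 held Cxcr2, 92 held Cxcr2 and Ccr1, and 77 held Cxcr2 and Cxcr4, at a median depth of only 3083 UMIs. Neutrophil levels depended on the gate: with 1 more marker required, the median over libraries was 1073 CPM for Cxcr2, 549 for Ccr1 and 417 for Cxcr4, and with clusters in place of gates it was 507, 365 and 198. Neutrophils remained the leading type for the 3 receptors under both, among the types that had a value. No cluster was named for either monocyte class, and nonclassical monocytes had no value with 1 more marker. The lead of neutrophils over these monocytes, the next types for Cxcr4, was therefore not tested there.

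Ccr2, through which Ccl2 and Ccl7 release monocytes from the bone marrow, was highest in classical monocytes, at 656, 977 and 1026 CPM in the first 3 libraries, with 80.4%, 100% and 100% of cells positive. Cavity-like macrophages held 640.4 and 865 CPM in their 2 libraries, with 97.6% and 91.3% of cells positive, and gave 32.5% of all 7269 Ccr2 UMIs. Type 2 dendritic cells held 394, 965 and 355 CPM in the normocholesterolemic Nrf2flox/flox, atherosclerotic Nrf2flox/flox and atherosclerotic labelled Nrf2Cdh5tKO libraries. The ranges of these 3 types overlapped. With clusters in place of gates the cavity-like macrophages led, at a median of 1022 CPM. No cluster was named for classical monocytes or type 2 dendritic cells, so that setting does not order the 3 types. In the normocholesterolemic Nrf2flox/flox library, group 2 innate lymphoid cells (15 cells) held 594 CPM, NK cells 277 and type 1 dendritic cells 122. Nonclassical monocytes held 34.6 and 68.2 CPM, endothelial cells held no UMI of Ccr2, and B cells held 0 to 8.49 CPM.

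Macrophages of the vessel wall carried Ccr2 unevenly. Lyve1-negative macrophages held 126, 212, 398 and 118 CPM, with 10.8% to 31.8% of cells positive, and Lyve1+ macrophages 31.1, 27.7, 80.2 and 142 CPM, with 3.83% to 8.78% positive. Both groups were made of many cells without a UMI and a few with many. In Lyve1+ macrophages, 9, 4, 2 and 7 cells held at least 5 UMIs each, a limit chosen after the values were seen, and outside them 62 of 138, 13 of 50, 4 of 31 and 9 of 189 UMIs were left. The highest cell of the atherosclerotic library labelled Nrf2Cdh5tKO held 81 UMIs. Without these cells the Lyve1+ levels were 14.4, 7.31, 10.8 and 7.50 CPM, and the order of the libraries was different. In Lyve1-negative macrophages the 11, 8, 5 and 3 such cells left 49 of 164, 2 of 117, 4 of 95 and 8 of 60 UMIs to the others, and the levels of the others were 43.6, 4.47, 27.8 and 17.7 CPM. These remained above those of the Lyve1+ cells in 3 of the 4 libraries and below them in the normocholesterolemic library labelled Nrf2Cdh5tKO. Classical monocyte markers, in UMIs per 10000, were 2.88, 4.29, 0.527 and 4.09 in those Lyve1-negative cells against 0.890, 1.05, 4.38 and 2.15 in the remaining ones, and 0.543, 0.325, 0 and 0.773 against 0.923, 0.416, 0.783 and 0.567 in the Lyve1+ cells. Since the macrophage gate took precedence, some of these macrophages may also have passed the classical monocyte gate. The part of monocytes or doublets in the high cells was not tested.

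**Figure D2:**
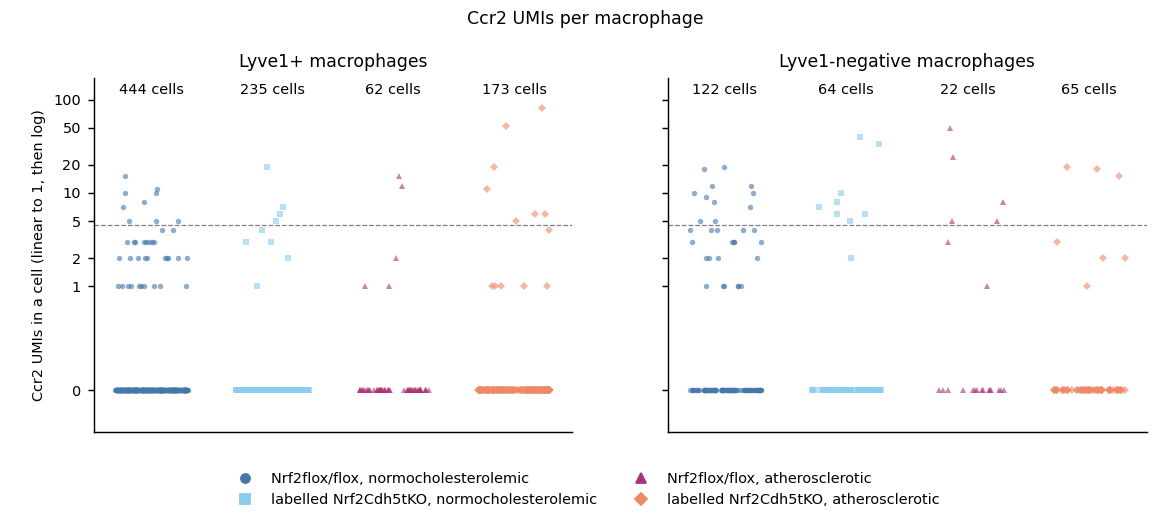
Ccr2 UMIs per cell in Lyve1+ and Lyve1-negative macrophages of each library; each point is 1 cell and the dashed line lies between 4 and 5 UMIs. Most cells sit at 0, and the few cells above the line hold most of the UMIs, among them 1 Lyve1+ cell with 81.

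Cx3cr1, the receptor for the membrane-bound chemokine Cx3cl1 on patrolling monocytes and resident macrophages, was highest in nonclassical monocytes, at 283 and 437 CPM in the normocholesterolemic Nrf2flox/flox library (87.0% of 23 cells) and the atherosclerotic library labelled Nrf2Cdh5tKO (100% of 11). Lyve1-negative macrophages held 182, 384, 155 and 235 CPM, with 46.2% to 59.4% of cells positive. Classical monocytes held 101, 307 and 177 CPM in the first 3 libraries. Lyve1+ macrophages held 44.8, 117, 67.3 and 140.0 CPM, with 18.9%, 29.8%, 16.1% and 28.3% of cells positive. Each of these 4 types overlapped the next, so their order is not resolved by the libraries. With clusters in place of gates, Lyve1-negative macrophages led among the types that had a value, at a median of 348 CPM. The same held with 1 more marker in the gates, at 151 CPM. Nonclassical monocytes had no value under either setting, and no cluster was named for classical monocytes. Neither setting therefore orders nonclassical monocytes against Lyve1-negative macrophages. Cavity-like macrophages were the exception among macrophages, at 4.81 and 4.15 CPM. In fibroblasts the Cx3cr1 UMIs were uneven, with 177 in 32 of 4398 cells of the normocholesterolemic Nrf2flox/flox library, 146 of them in 8 cells. In the atherosclerotic library labelled Nrf2Cdh5tKO, 65 of 81 UMIs lay in 3 cells. The highest fibroblast-gated cells of these libraries held 42 and 37 UMIs, so these few cells are not read as background. What they are was not tested.

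The mononuclear phagocytes were compared by edgeR's quasi-likelihood test on UMIs summed per cell type and library, with the library as a term and Benjamini-Hochberg adjustment over 11729 genes. The replicates of a type are thus the 3 or 4 libraries with at least 10 of its cells, which differ in genotype label and diet. The atherosclerotic library labelled Nrf2Cdh5tKO had only 9 classical monocytes and the normocholesterolemic one only 8 type 2 dendritic cells. All gated types were fitted together and share 1 estimate of the spread for each gene. Ackr1 was too low for this test, so 8 members were tested. A difference is called at an adjusted p under 0.05.

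Classical monocytes had more Ccr2, Cxcr4 and Cx3cr1 than Lyve1+ macrophages. The difference was 3.73 ± 0.41 on the log2 scale (± SE; adjusted p = 8.6e-10, edgeR) for Ccr2 and 1.30 ± 0.27 (adjusted p = 0.0002, edgeR) for Cxcr4. For Cx3cr1 it was 1.13 ± 0.38 (adjusted p = 0.023, edgeR), a call that was lost without the normocholesterolemic Nrf2flox/flox library (1.29), the normocholesterolemic library labelled Nrf2Cdh5tKO (0.98) or the atherosclerotic Nrf2flox/flox library (1.15). Ccr1 differed by 0.01 ± 0.31 and was not called. These 3 of 8 members stand beside 27.5% of all genes tested. Of the other receptors of the family, 1 was called higher in monocytes and 1 lower. Ccrl2, a non-signalling receptor that presents chemerin, was higher in monocytes (1.96). Of the ligands, 6 passed the test, all lower in monocytes, among them Ccl8 (−5.46) and the Ccr2 ligands Ccl2 (−3.16) and Ccl7 (−7.10). Lyve1+ macrophages held 1560.1 to 2510.4 CPM of Ccl2 and 1159 to 1744 CPM of Ccl7. Of the 16 genes of receptor signalling, 5 were higher in monocytes and 4 lower.

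Lyve1-negative macrophages differed from Lyve1+ macrophages in 4 of 8 members, beside 14.8% of all genes. Ccr2 was higher by 1.65 ± 0.38 (adjusted p = 0.0016, edgeR), Cx3cr1 by 1.52 ± 0.30 (adjusted p = 0.00023, edgeR) and Cxcr4 by 0.98 ± 0.24 (adjusted p = 0.0024, edgeR), whereas Ccr1 was lower, at −0.92 ± 0.26 (adjusted p = 0.011, edgeR). Ccr2 was not called without the normocholesterolemic library labelled Nrf2Cdh5tKO (1.26). The Ccr1 call was lost without either normocholesterolemic library (−0.81 without Nrf2flox/flox, −0.79 without the library labelled Nrf2Cdh5tKO), with 1 more marker in the gates (−0.52) and without the library term (−0.86). The ligands of Ccr2 were again on the side of the Lyve1+ cells, with Ccl7 (−1.65), Ccl2 (−1.23) and Ccl12 (−0.85) lower in Lyve1-negative cells. Ccl8 (−3.97) and the Ccr1 ligand Ccl6 (−0.91) were lower there too. Ccl4 (1.68), Ccl3 (0.85) and Cxcl16 (1.36), the Cxcr6 ligand, were higher in Lyve1-negative cells. Ccl4 reached 1919 to 3302 CPM in Lyve1-negative macrophages, and 4 signalling genes passed the test, all higher.

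Type 2 dendritic cells, which carry antigen to lymph nodes, were set against Lyve1-negative macrophages, and 3 of 8 members passed the test beside 14.7% of all genes. Ccr7 was higher by 6.64 ± 0.65 (adjusted p = 2.3e-10, edgeR) and Ccr2 by 1.48 ± 0.39 (adjusted p = 0.0057, edgeR), whereas Cx3cr1 was lower, at −3.25 ± 0.52 (adjusted p = 7.2e-06, edgeR). The Ccr2 call was lost without the normocholesterolemic Nrf2flox/flox library (1.34). Cxcr4, at −0.84 ± 0.30, was not called (adjusted p = 0.053, edgeR) but passed without the atherosclerotic library labelled Nrf2Cdh5tKO (−1.04). In dendritic cells 9 ligands passed the test, all lower, including Cxcl2 (−5.03) and Ccl3 (−5.92), and Ccrl2 was lower (−1.66). In the dendritic cells Ccr7 was uneven: 88 UMIs of the atherosclerotic Nrf2flox/flox library lay in 3 of 17 cells.

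Cxcr4, the receptor for Cxcl12 that retains cells in marrow and tissue, was the broadest member. In libraries with at least 10 cells it was highest in neutrophils, at 681 and 579 CPM, and then in nonclassical monocytes, at 398 and 327 CPM. Classical monocytes held 255, 163 and 274 CPM, Lyve1-negative macrophages 159.6, 149, 193 and 233 CPM, and B cells 125, 83.4, 189 and 204 CPM. These 3 types overlapped each other. Lyve1+ macrophages held 137, 59.2, 67.3 and 105 CPM, T cells 72.9, 104, 78.1 and 119 CPM, and thymocytes 58.8, 54.5, 58.3 and 32.4 CPM. Every one of these leukocyte types had a larger positive share than fibroblasts. Its ligand Cxcl12 lay in endothelial cells, at 480.3 to 909.7 CPM, and in fibroblasts, at 312 to 888 CPM.

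Ccr7, which brings lymphocytes and mature dendritic cells to lymph nodes along Ccl19 and Ccl21, was shared by B cells and T cells. B cells held 333, 461, 319.9 and 228 CPM, with 72.5%, 83.3%, 71.0% and 61.5% of cells positive. T cells held 222, 424, 187 and 243 CPM, with 25.5%, 48.0%, 26.4% and 29.3% positive, so a smaller share of T cells gave an overlapping range of levels. The 8 cells of the mature dendritic gate (2, 1, 1 and 4 per library) were all positive, at 3757, 2049.8, 1914 and 5696 CPM, and gave 14.3% of all 2091 Ccr7 UMIs. Thymocytes held 11.9, 2.16, 2.2 and 0 CPM.

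Cxcr6, the receptor for membrane-bound Cxcl16 on effector and tissue-resident lymphocytes, was found mainly in T cells and also in group 2 innate lymphoid cells. T cells gave 83.0% of its 1272 UMIs and held 429, 184, 259 and 240.0 CPM, with 50.5%, 28.0%, 33.3% and 44.8% of cells positive. The gamma-delta gate within T cells needed UMIs of at least 4 of the 5 markers Trdc, Tcrg-C1, Trdv4, Cd163l1 and Il17a, so it can miss other gamma-delta cells. This gamma-delta subset held 1059.6 CPM in the normocholesterolemic Nrf2flox/flox library (55 cells) and 645 CPM in the atherosclerotic library labelled Nrf2Cdh5tKO (10 cells), and all were positive. Cytotoxic T cells held 176, 180.3, 253 and 154 CPM and the other T cells 168, 85.4, 88.4 and 146 CPM. Group 2 innate lymphoid cells held 572 CPM in the normocholesterolemic Nrf2flox/flox library, with 13 of 15 cells positive, above the 429 CPM of its T cells. No UMI was seen in NK cells or B cells. In the normocholesterolemic Nrf2flox/flox library, the only library with 10 NK cells, these were at least 21.2-fold lower than T cells in Cxcr6 and at least 10.9-fold lower in Ccr7, with the floor at 3 UMIs in the 28 NK cells, and no test was possible.

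T cells were split by receptor. Ccr2 in T cells was 291, 179, 93.7 and 265 CPM, and in the gamma-delta subset 634 CPM (96.4% of 55 cells) and 839 CPM (100% of 10 cells) in the normocholesterolemic Nrf2flox/flox and atherosclerotic labelled Nrf2Cdh5tKO libraries. The other T cells held 138, 79, 10.6 and 119 CPM of Ccr2 but 388, 506, 265 and 356 CPM of Ccr7. Of 434 T cells, 147 held Ccr2, 181 held Cxcr6 and 131 held both, which is 89.1% of the Ccr2-positive cells against 17.4% of the other T cells with Cxcr6. Only 5 of the Ccr2-positive cells held Ccr7 (3.40%, against 45.6% of the other T cells), and 16 of the Cxcr6-positive cells did (8.84% against 47.4%). The Ccr2-positive cells were deeper, at a median of 7642 UMIs against 6138. The direction was the same in each library, with Cxcr6 in 93.5%, 91.7%, 69.2% and 77.8% of Ccr2-positive cells against 15.2%, 7.89%, 25.4% and 30.0% of the others. Without the cells of the gamma-delta gate, 55 of 70 Ccr2-positive cells held Cxcr6 (78.6%, against 16.8%) and 3 held Ccr7. Gamma-delta cells with fewer of the gate's markers may remain among these.

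The 180 T cells with Ccr2 or Cxcr6 and without Ccr7 were compared with the 119 cells with Ccr7 alone, for genes chosen after the values were seen for their known roles. Their median depths were 7352.5 and 6827 UMIs. Lef1, a transcription factor of naive T cells, was detected in 18.9% and 91.6%, and S1pr1, the receptor for exit from tissue, in 17.8% and 65.5%. Cd44, an activation marker, was in 71.7% and 17.6%, Pdcd1 in 52.2% and 2.52%, Icos in 67.2% and 38.7%, and Rora in 71.7% and 13.4%. Il7r, in 81.1% and 73.9%, and Nkg7, in 36.7% and 35.3%, were close. The gamma-delta genes Trdc (47.8% and 4.20%) and Tcrg-C1 (58.9% and 2.52%) also differed, so the first class holds many gamma-delta cells. This comparison was not made without them, and their part in the differences was not tested. These are shares of cells pooled over libraries and carry no test.

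**Figure D3:**
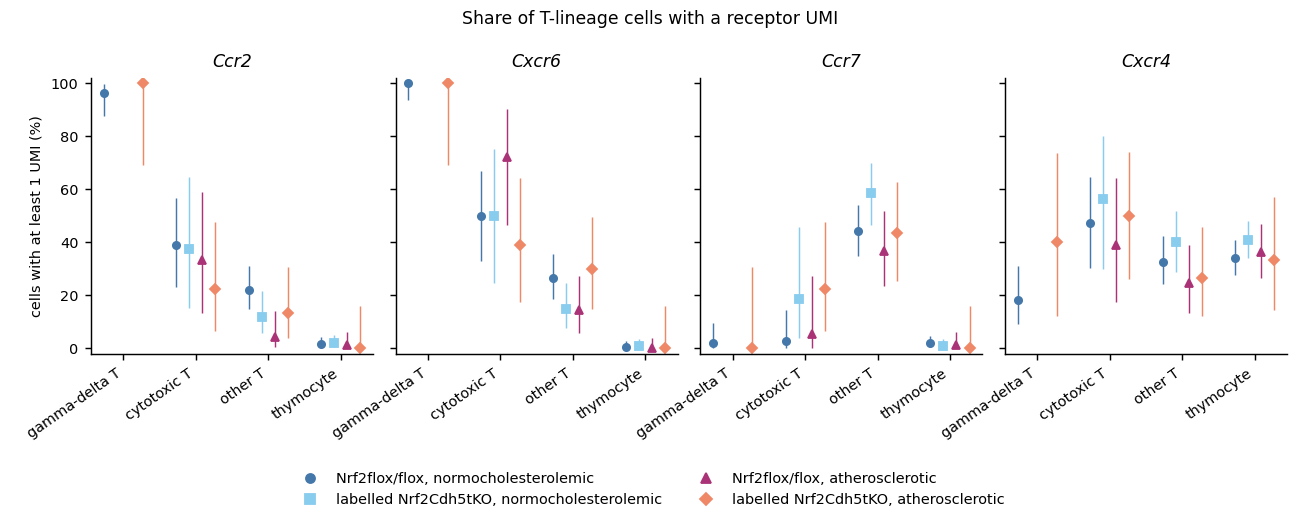
Share of cells with at least 1 UMI of Ccr2, Cxcr6, Ccr7 and Cxcr4 in gamma-delta T cells, cytotoxic T cells, other T cells and thymocytes; points are libraries with at least 10 cells of the group and bars are exact 95% binomial intervals. T cells of the gamma-delta gate are near 100% for Ccr2 and Cxcr6, whereas Ccr7 is most frequent in the other T cells, and thymocytes are near 0 for all but Cxcr4.

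T cells against thymocytes gave 4 calls among 8 members, all higher in T cells, beside 36.1% of all genes. Cxcr6 was higher by 6.65 ± 0.37 (adjusted p = 3.6e-15, edgeR), Ccr2 by 5.98 ± 0.55 (adjusted p = 6.0e-12, edgeR), Ccr7 by 5.72 ± 0.38 (adjusted p = 8.1e-16, edgeR) and Cxcr4 by 0.82 ± 0.26 (adjusted p = 0.013, edgeR). The Cxcr4 call was lost without the atherosclerotic library labelled Nrf2Cdh5tKO (0.68) and with clusters in place of gates (0.71). In the wider family 8 receptors were higher in T cells, among them Cxcr3 (7.29) and Ccr4 (3.84), and Ccr9, the thymic and gut homing receptor, was lower (−1.52 ± 0.18), with 282 to 386 CPM in thymocytes. In addition, 7 ligands, led by Ccl5 (6.81), and 10 of the 16 signalling genes were higher in T cells.

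B cells against T cells gave 3 calls beside 17.1% of all genes. Ccr2 was lower in B cells, at −5.16 ± 0.70 (adjusted p = 1.6e-07, edgeR), and Cxcr6, without a UMI in B cells, was at least 142-fold lower. Ccr1 was higher by 2.65 ± 0.71 (adjusted p = 0.0049, edgeR), with 9.91, 8.78, 54.1 and 42 CPM in B cells. This rests on few cells: 12 and 7 UMIs in 3 cells each of the atherosclerotic libraries, and the call was lost without the atherosclerotic Nrf2flox/flox library (1.96). Ccr7 (0.50 ± 0.26, adjusted p = 0.196) and Cxcr4 (0.76 ± 0.28, adjusted p = 0.056) were not called by edgeR, although Cxcr4 passed without the normocholesterolemic library labelled Nrf2Cdh5tKO (1.10). Of the other receptors of the family, 2 were called higher in B cells and 3 lower. Cxcr5 (6.30) and Ccr6 (3.26), receptors of B cell follicles and mucosal sites, were higher in B cells, with 132 to 162 CPM and 30.7 to 144 CPM. Among the ligands 2 were called, both lower in B cells, and of the signalling genes 2 were higher and 4 lower.

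Ackr3, which binds and removes Cxcl12, was a fibroblast transcript. Fibroblasts gave 94.1% of its UMIs and held 585, 599.9, 664 and 526 CPM, with 76.8%, 88.7%, 84.3% and 75.2% of cells positive and a median of 5, 7, 8 and 4 UMIs per positive cell. The 4 libraries differed by less than 2-fold. Endothelial cells held 125, 194, 148 and 123 CPM, with 30.6%, 51.2%, 33.3% and 43.5% of cells positive at a median depth of 4823 UMIs. Smooth muscle cells held 16.7, 16.1, 19.4 and 19.97 CPM, and 15 mesothelial cells of the normocholesterolemic library labelled Nrf2Cdh5tKO held 129 CPM. Lyve1+ macrophages, which give the background, had 5.11% to 15.8% of cells positive.

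Ackr1, which binds many inflammatory chemokines and is known from red blood cells and venular endothelium, was found here in fibroblasts. They gave 93.8% of its 1009 UMIs, at 9.88, 7.64, 15.8 and 9.19 CPM, with 7.98%, 8.38%, 12.3% and 7.79% of cells positive, against 0% to 0.452% of smooth muscle cells, which were deeper (median 15429 UMIs). In the 163 endothelial cells, 3 UMIs were seen, all in 1 cell of the atherosclerotic Nrf2flox/flox library. Of the 5 venous markers, Vwf was found in 66 of these cells, Selp in 56, Nr2f2 in 17, Lrg1 in 17 and Sele in 11, and Vwf was also a marker of the endothelial gate. Ackr1 was therefore not detectable beyond 1 endothelial cell at this depth. Of 635 Ackr1-positive fibroblasts, 625 also held Ackr3 (98.4%, against 77.8% of the other fibroblasts). The Ackr1-positive cells were deeper, at a median of 17334 UMIs against 12547, and the part of depth in this was not tested.

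Within fibroblasts the 2 atypical receptors were compared over the 12 clusters with at least 100 fibroblast-gated cells. Ackr3 was highest in a cluster led by Sbsn and Krtdap (613 cells), at 989 to 1229.8 CPM over the libraries, and in one led by AA467197, Ptgs1 and Wnt2 (826 cells), at 953 to 1223 CPM. Ackr1 was highest in the same clusters, at 34.4 to 53.1 CPM and 14.6 to 24.2 CPM. The 2 clusters with the highest median of Cxcl12 held less Ackr3 than the Sbsn and AA467197 clusters. A cluster led by Cxcl14, Cxcl9 and Penk held 806 to 1954 CPM of Cxcl12 and 120.3 to 280.1 CPM of Ackr3, and one led by Fbln7, Pax1 and Fmod held 641 to 1589.6 and 206 to 323 CPM. The Sbsn cluster held 107 to 284 CPM of Cxcl12. Other clusters did not follow this contrast. The cluster led by Hbb-bs and Hba-a1, next in Cxcl12 (median 901 CPM), had an Ackr3 median of 622 CPM. The clusters led by Aqp1 and by Wif1, each with a level in 1 library, held least Ackr3 (55.2 and 58.6 CPM). Their Cxcl12 was also low (53.8 and 96.1 CPM). Since the clusters were made from all variable genes of the same cells, these values describe them and carry no test.

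**Figure D4:**
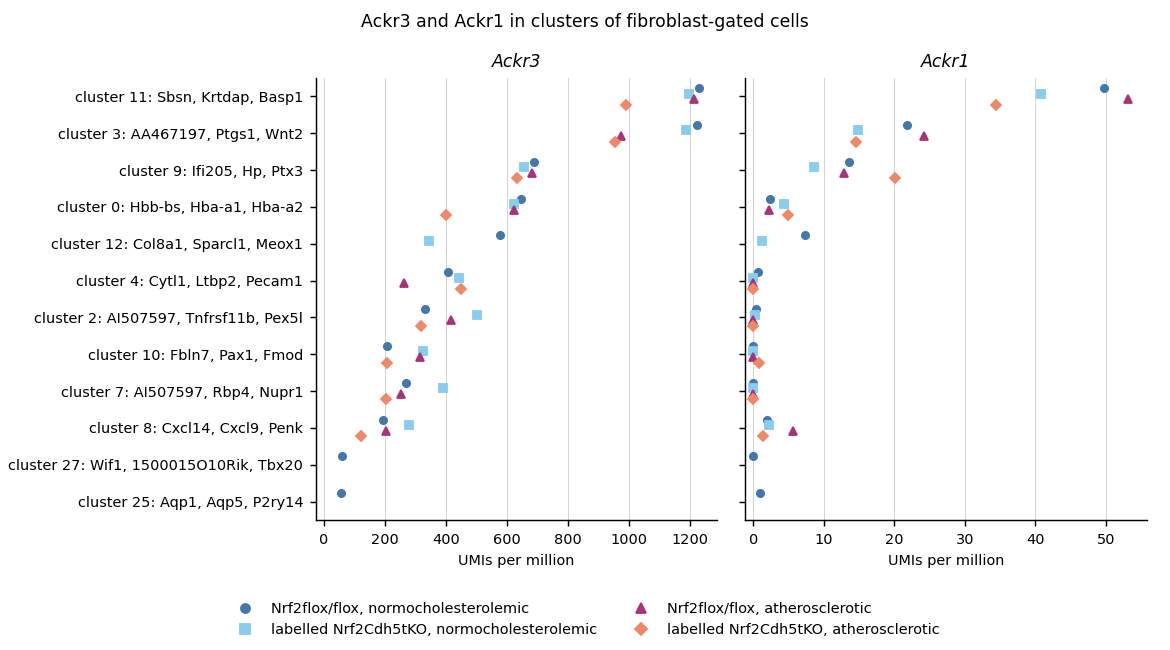
Ackr3 and Ackr1 levels, in UMIs per 1000000, in the 12 clusters with at least 100 fibroblast-gated cells; points are libraries and each cluster is named by its leading genes. The clusters led by Sbsn and by AA467197 are highest for Ackr3, at 953 to 1229.8 CPM, and for Ackr1.

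Endothelial cells against fibroblasts gave 1 call among 8 members, beside 32.3% of all genes: Ackr3 was lower in endothelial cells, at −2.35 ± 0.22 (adjusted p = 1.5e-12, edgeR). Smooth muscle cells against fibroblasts gave 2 calls beside 45.3% of all genes, Ackr3 at −5.12 ± 0.22 (adjusted p = 1.9e-24, edgeR) and Cx3cr1 at −2.02 ± 0.59 (adjusted p = 0.004, edgeR). Few cells of either type held Cx3cr1. In the normocholesterolemic Nrf2flox/flox library 146 of its 177 UMIs in fibroblasts lay in 8 cells, and the call was lost without that library (−1.74). Without the filter on low counts Ackr1 was also called lower in endothelial cells (−2.16, adjusted p = 0.0145, edgeR) and in smooth muscle cells (−5.27, adjusted p = 9.7e-30, edgeR). In endothelial cells the floor of 3 UMIs was 8.12, 11.4, 17.8 and 14.8 CPM, against 9.88, 7.64, 15.8 and 9.19 CPM in fibroblasts. It lay below the fibroblast level only in the normocholesterolemic Nrf2flox/flox library. The atherosclerotic Nrf2flox/flox library held 17.8 CPM in endothelial cells, so single libraries do not show a lower level there. Of the ligands, Ccl2 (−2.19), Ccl7 (−4.00), Cxcl1 (−1.53) and Ccl19 (−5.78) were lower in endothelial cells than in fibroblasts. Ccl21a was higher (9.22), but all 76 of its UMIs lay in 2 endothelial cells. Smooth muscle had less of 9 ligands, including Cxcl12 (−3.60), Cxcl1 (−3.52) and Ccl2 (−3.64). Ackr2, another scavenging receptor, was on the fibroblast side too, at −5.03 in endothelial cells, with 19.7 to 33.2 CPM in fibroblasts.

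The genes whose level most resembled each member were found by Pearson's r of log2(CPM + 10) over 48 sums of 17 cell types in 4 libraries. Each member was compared with 12852 genes, since cell type markers and genes with fewer than 200 UMIs in these sums were left out. The sums share libraries and cell types, so r is a description. For Ccr1 these were Sde2 (0.87), Ncf1 (0.86) and Hk3 (0.86), and for Ccr2 Fam105a (0.84), Coro2a (0.83) and Pitpna (0.78). For Cx3cr1 they were Lair1 (0.88), Ms4a6d (0.87) and Clec4a3 (0.86), and for Cxcr2 Stfa2l1 (0.98), Asprv1 (0.98) and Acod1 (0.97). Cxcr4 was closest to Hcls1 (0.94), Fam49b (0.94) and Lcp1 (0.93), which are found in most leukocytes. Ccr7 was closest to Blk (0.87), Bach2 (0.83) and Gm8369 (0.83), and Cxcr6 to Icos (0.99), Tcrg-C4 (0.97) and Pdcd1 (0.91). Ackr3 was closest to Cd34 (0.96), Fndc1 (0.95) and Lamb1 (0.93), and Ackr1 to Ssc5d (0.91), Ccdc74a (0.83) and Fam131b (0.81).

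Diet (here the vector and high-fat diet together) and genotype label were each compared 1 library against 1, so these ratios carry no test, and pool, genotype, diet and library cannot be told apart within them. Directions by genotype label rest on the labels, which the Nfe2l2 level could not check. The ratios are given for types with at least 20 cells in both libraries and at least 10 UMIs of the receptor. Between the atherosclerotic and normocholesterolemic Nrf2flox/flox libraries, 17 of 39 ratios passed 2-fold, 9 higher and 8 lower in the atherosclerotic library, beside 18.5% of the ratios of all genes in these types. Between the libraries labelled Nrf2Cdh5tKO, 8 of 31 passed, 6 higher and 2 lower, beside 14.0%. Between the genotype labels, 15 of 41 passed in normocholesterolemic mice, 4 higher and 11 lower in the library labelled Nrf2Cdh5tKO, beside 12.6%, and 7 of 27 in atherosclerotic mice, 4 higher and 3 lower, beside 13.6%.

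Some ratios had the same direction in both pairs of libraries. With diet, Cxcr4 in B cells had a log2 ratio of 0.60 (0.04 to 1.15) in Nrf2flox/flox and 1.29 (0.44 to 2.18) under the Nrf2Cdh5tKO label, from 125 to 189 CPM and from 83.4 to 204 CPM. Ccr7 in T cells had −0.24 (−0.60 to 0.10) and −0.80 (−1.16 to −0.46), the first of which included 0. Ccr2 in Lyve1+ macrophages had 1.37 (0.76 to 1.94) and 2.36 (1.91 to 2.84), but without the cells of at least 5 UMIs its levels were 14.4 and 10.8 CPM in Nrf2flox/flox and 7.31 and 7.50 CPM under the Nrf2Cdh5tKO label. With genotype label, Cx3cr1 was higher in both macrophage groups and in both diets. In Lyve1+ macrophages its log2 ratio, Nrf2Cdh5tKO label over Nrf2flox/flox, was 1.38 (1.09 to 1.67) under standard diet and 1.06 (0.46 to 1.71) in the atherosclerotic pools. In Lyve1-negative macrophages it was 1.08 (0.80 to 1.35) and 0.60 (0.06 to 1.17), and the latter turned to −0.26 when each cell was given equal weight.

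Other ratios had opposite directions. With diet, Cxcr4 in Lyve1+ macrophages had −1.03 (−1.65 to −0.46) in Nrf2flox/flox and 0.83 (0.46 to 1.21) under the Nrf2Cdh5tKO label, with 57.4%, 24.3%, 30.6% and 42.2% of cells positive in the 4 libraries. Ccr2 in T cells had −1.63 (−2.13 to −1.18) and 0.56 (0.18 to 0.94), and Cxcr6 in T cells −0.73 (−1.03 to −0.44) and 0.38 (−0.01 to 0.77). The gated gamma-delta T cells, the subset with most Ccr2 and Cxcr6, were 55 of 204, 9 of 100, 5 of 72 and 10 of 58 T cells, and their part in these ratios was not tested. In fibroblasts Ackr3 had 0.18 (0.14 to 0.23) and −0.19 (−0.23 to −0.15), both far below 2-fold. Ackr1 in fibroblasts, by contrast, was above 0 in both pairs, at 0.68 (0.37 to 0.98) and 0.27 (−0.07 to 0.60), the second of which included 0. Ccr1 in Lyve1+ macrophages was flat in both, at 0.08 and −0.03.

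**Figure D5:**
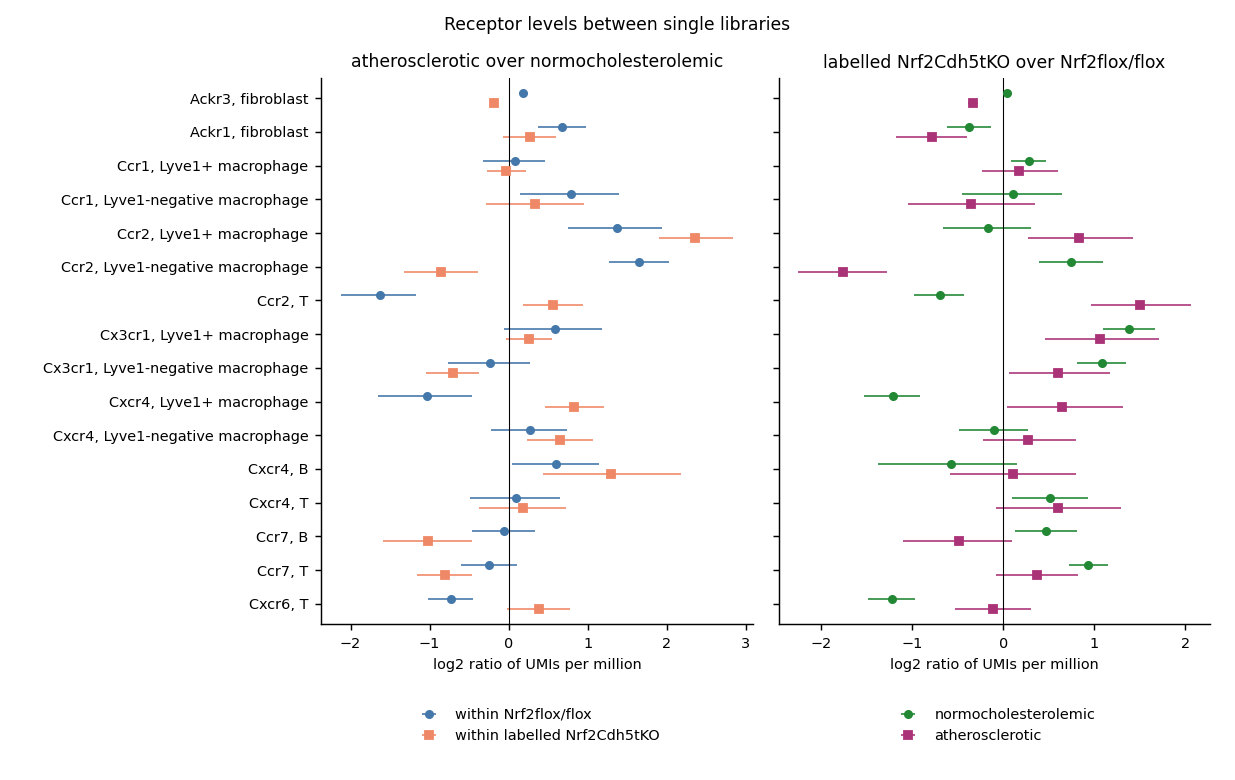
Log2 ratios of receptor levels between libraries, left for diet (atherosclerotic over normocholesterolemic) within each genotype label and right for genotype label (Nrf2Cdh5tKO over Nrf2flox/flox) within each diet; each point compares 1 library with 1 and bars are exact 95% intervals for counting error only. Cx3cr1 in both macrophage groups lies above 0 for genotype label in both diets, whereas Cxcr4 in Lyve1+ macrophages and Ccr2 in T cells lie on opposite sides of 0 for diet.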

How the data were processed

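Droplet libraries (10x Genomics 3′, 1 per condition) were processed by the authors with Cell Ranger 6.1.2 on mm10, and the deposited values are raw UMI counts per gene and cell. Reads of overlapping genes cannot be separated here beyond what that counting did. Barcodes were kept if they held 200 to 6000 genes and no more than 15% of UMIs from mitochondria, which left 14148 of 15599. Cell types were gated on marker genes without the 9 receptors. The gate limits were set after the marker distributions, and not the receptor values, had been seen. Cells of no gate (716) or of gates of several lineages (597) were left out of types, and 642 cells lay close to a limit of level. Scrublet called 0.485% to 2.32% of cells per library as doublets; they were kept, and removed in an alternative.

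The members and gene lists were chosen with earlier results of these data known. Named genes were the 9 members, in the listed families those past the test, and for each member the 3 genes of highest Pearson's r of log2(CPM + 10). Cell type markers and genes with few UMIs were not candidates for these 3. Levels were set as UMIs per 1000000 with exact Poisson intervals, and shares of cells with exact binomial (Clopper-Pearson) intervals. Shares were also computed after thinning cells to 1000 UMIs. Types were compared with edgeR 4.0.16 (R 4.3.3), by quasi-likelihood tests on sums of at least 10 cells with type and library as terms and Benjamini-Hochberg adjustment. A comparison was run where both types had 3 such libraries. Neutrophils and nonclassical monocytes against classical monocytes and NK against T cells were not run for want of cells. Some items and their results are not reported here. On simulated counts, 4-fold changes were recovered for 67.5% of genes (endothelial cells against fibroblasts, 11542 genes) to 90.9% (smooth muscle cells against fibroblasts, 11631 genes), and 2-fold changes for 15.0% (type 2 dendritic cells against Lyve1-negative macrophages, 11756 genes) to 49.3% (smooth muscle cells against fibroblasts). The simulated counts had the same spread for every gene and no difference between libraries. Changed genes were drawn only from those sufficiently counted in the second type. These rates need therefore not hold for uneven genes such as Ccr2. Conditions were compared by log2 ratios of CPM, whose exact intervals treat the UMIs of both libraries as a binomial draw.

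Alternatives were DESeq2 1.42.0, its size factors in edgeR, no filter on low counts, no library term, other cell filters, 1 more marker per gate, Leiden clusters (scanpy 1.11.5, Python 3.11.15), equal weight for each cell, and leaving out each library. Since each condition has 1 library, the 4 pools that serve as replicates of a type differ in genotype label and diet. The p-values for types rest on the spread left after the library term, estimated for each gene over all gated types.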

Additional observations from a re-analysis of the deposited data

Results flagged for a closer look

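Between the Nrf2flox/flox libraries and between the libraries labelled Nrf2Cdh5tKO, 4 ratios of atherosclerotic over normocholesterolemic levels went in opposite directions with both intervals clear of 0. With 1 library per condition the difference between these ratios was not tested. In fibroblasts, Ackr3 had a log2 ratio of 0.18 in Nrf2flox/flox and −0.19 under the Nrf2Cdh5tKO label. In Lyve1-negative macrophages, Ccr2 had 1.65 and −0.85, with most UMIs in 11, 8, 5 and 3 cells of the 4 libraries, and with 1 more marker in the gates the second was 0.50, so that the directions were no longer opposite. In T cells, Ccr2 had −1.63 and 0.56, while gated gamma-delta T cells were 55, 9, 5 and 10 of the T cells. In Lyve1+ macrophages, Cxcr4 had −1.03 and 0.83. The part of the few high cells and of the gamma-delta cells in these ratios was not tested.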

How the results depend on the processing

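The members past the test stayed within 1.5 times of their number under most alternatives. Leaving out 1 library gave as few as 2 in place of 4 in Lyve1-negative against Lyve1+ macrophages. It gave as few as 1 in place of 2 in smooth muscle cells against fibroblasts. The further exceptions were Lyve1-negative against Lyve1+ macrophages, with 2 in place of 4 by DESeq2, endothelial cells against fibroblasts, with 2 in place of 1 without the filter on low counts, with Leiden clusters and by DESeq2, and smooth muscle cells against fibroblasts, with 4 in place of 2 without the filter, which then tests more genes. In the other cases the cause was not tested. By DESeq2, Cxcr6 was no longer called in T cells against thymocytes (7.53) or in B cells against T cells (−8.65), and neither was Cx3cr1 in Lyve1-negative macrophages (1.55). Among the log2 differences under the alternatives, 581 kept their side of the threshold, 21 fell short of it and 17 passed it newly.

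Leaving out 1 library at a time gave 2 to 3 members in classical monocytes against Lyve1+ macrophages, 2 to 4 in Lyve1-negative against Lyve1+ macrophages, 2 to 4 in type 2 dendritic cells against Lyve1-negative macrophages, 3 to 5 in T cells against thymocytes, 2 to 4 in B cells against T cells, 1 in endothelial cells and 1 to 2 in smooth muscle cells against fibroblasts. The leading type was the same for 5 to 9 of the 9 members. It was the same for 5 without the normocholesterolemic Nrf2flox/flox library, since neutrophils and nonclassical monocytes then have too few cells for Ccr1, Cx3cr1, Cxcr2 and Cxcr4.

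The replicate block is the library term, since types of 1 library come from the same mice. Without this block 2 members passed in classical monocytes against Lyve1+ macrophages, 3 in Lyve1-negative macrophages, 3 in type 2 dendritic cells, 4 in T cells against thymocytes, 3 in B cells, 1 in endothelial cells and 2 in smooth muscle cells. The block thus changed the call of Cx3cr1 in monocytes (0.91) and of Ccr1 in Lyve1-negative macrophages (−0.86).

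Among the condition ratios, 213 moved little, 14 moved and 5 reversed. With each cell weighted equally, Ccr1 in Lyve1-negative macrophages had −0.19 with diet in Nrf2flox/flox, Ccr2 in Lyve1+ macrophages −0.47 and Cx3cr1 in Lyve1-negative macrophages −0.26 with genotype label in atherosclerotic libraries. With 1 more marker in the gates, Ccr2 in Lyve1-negative macrophages had 0.50 with diet under the Nrf2Cdh5tKO label and −0.76 with genotype label in normocholesterolemic libraries. Depth limits neutrophils, at a median of 3083 UMIs, and the types with under 20 cells in a library.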
